A study of Mus musculus with 24 samples.

Results

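Curcumin-fed mice with colitis were set against mice with colitis on the standard diet, in 12 of the 24 arrays of a mouse colon series. The arrays were chosen by their labels for diet and enema: 3 Affymetrix 430A and 3 430B arrays of the curcumin diet with TNBS, and 3 and 3 of the standard diet with TNBS. All were made from whole colon of BALB/c mice, an inbred laboratory strain, 6 to 8 weeks old. The curcumin group ate a diet with 2% curcumin and the other group the standard diet. Both diets began 2 days before an enema of trinitrobenzene sulfonic acid (TNBS) on day 0, and the colon was taken on day 7. The other 12 arrays hold the same diets, curcumin and standard, with a control enema in place of TNBS. They share the estimate of the spread and are given beside some values. The design text says that the RNA of 3 mice was pooled in each group, without saying if each numbered sample had a pool of its own. The p-values then measure the spread between these samples, which may be technical. The study asks what dietary curcumin does to gene expression in the colon under TNBS colitis.

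TNBS is a hapten: it binds to proteins of the colon wall and sets off an immune reaction that damages the tissue. In an inflamed colon the epithelium makes antimicrobial and acute phase proteins, neutrophils and monocytes enter from the blood, and enzymes and transporters of the absorptive cells often decline. Curcumin, the yellow polyphenol of turmeric, is known from cell cultures as an inhibitor of NF-kappa B, a transcription factor that switches on many inflammatory genes.

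Values below are the deposited signals, on a linear scale with no unit, in the order of replicates 1, 2 and 3. Signals of different probe sets cannot be compared with each other. A log2 difference is curcumin minus standard diet, given ± its standard error, and a gene is said to have risen or fallen only where its limma p, adjusted by the Benjamini-Hochberg method over all probe sets of the array type, was under 0.05. Markers of colon epithelium and muscle were present in both groups. Epcam, an adhesion protein of epithelial cells, read 10069, 9714 and 8586 on the curcumin-TNBS arrays, against 10196, 10501 and 9289.5 on the standard-TNBS arrays. Actg2, the actin of gut smooth muscle, read 6154, 6402 and 5436 on the curcumin-TNBS arrays, against 6188, 5237 and 6448 on the standard-TNBS arrays. In both genes the groups overlap, and the log2 differences were -0.08 ± 0.12 and 0.01 ± 0.17. Other epithelial markers differed by more: Slc26a3, the chloride and bicarbonate exchanger of the colon surface, read 6841, 6559 and 6723 on the curcumin-TNBS arrays, against 4541, 4691 and 5603 on the standard-TNBS arrays, higher on curcumin without overlap but short of the threshold (0.45 ± 0.14, adjusted p = 0.379), though the other 3 probe sets of the gene ranged from -0.13 to 0.62. Cdx2, a factor of intestinal identity, had a difference of 0.42 ± 0.17 (adjusted p = 0.566), and Muc2, the mucin of goblet cells, one of -0.57 ± 0.22 (adjusted p = 0.170), both with overlap.

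Some arrays stood apart for reasons the labels do not name. On 430A the leading principal component (32.0% of the variance) divided the 12 arrays into 2 sets of 6, with curcumin-TNBS replicate 1 and standard-TNBS replicates 2 and 3 in set 1, and curcumin-TNBS replicates 2 and 3 and standard-TNBS replicate 1 in set 2. Differences within a set are therefore given for the main genes. On 430B curcumin-TNBS replicates 2 and 3 were outlying: they correlated with the remaining 10 arrays at 0.770 on average and with each other at 0.909, while those 10 reached 0.904 among themselves. By this correlation, curcumin-TNBS replicate 1 is the only 430B array of its group that does not stand apart. Over the 100 probe sets found on both array types, however, its mean log2 signal on 430B was 11.93. That was the lowest of those 10 arrays, whose highest was 12.29, and the 2 outlying arrays averaged 11.60. The part of this in the 430B differences was not tested. No 2 arrays were identical, and the 3' to 5' ratio of the Gapdh control probe sets on 430A was 0.761 to 0.795 in the curcumin-TNBS arrays and 0.743 to 0.874 in the standard-TNBS arrays. The beta-actin ratio on 430A was 1.07 to 1.17 in the curcumin-TNBS arrays and 1.09 to 1.16 in the standard-TNBS arrays. That of the transferrin receptor was 2.01 to 2.71 and 2.52 to 3.05. On 430B the Gapdh ratio was 0.721 to 0.878 in the curcumin-TNBS arrays and 0.797 to 0.860 in the standard-TNBS arrays. For beta-actin it was 1.07 to 1.19 and 1.04 to 1.09 there, and for the transferrin receptor 2.09 to 3.99 and 3.06 to 3.78, so the curcumin-TNBS arrays spread more widely.

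On 430A, 4 of 22626 probe sets (0.0177%) passed the threshold, 2 higher and 2 lower on curcumin (0.00884% each). They belong to Lcn2 and Lbp, both lower, and to Aldh1a1 and Ssr4, both higher. An unadjusted p under 0.05 was reached by 1770 probe sets (7.82%). A fit with a term for the array set, chosen after the data were examined, passed 10, of which 4 were higher (0.0177%) and 6 lower (0.0265%), and all 4 probe sets of the first fit were among them. With quantile normalization or median centring 1 passed, a higher one. When 1 array was left out of the limma fit, 0 passed (1069 to 2118 unadjusted) without any 1 of the curcumin-TNBS arrays, standard-TNBS replicate 1 or 3, or standard-control replicate 1 or 2, 1 passed without standard-control replicate 3 or curcumin-control replicate 2, and 31 without curcumin-control replicate 3. On 430B, 93 of 22511 probe sets (0.413%) passed, 27 higher (0.120%) and 66 lower (0.293%), and 4598 (20.4%) had an unadjusted p under 0.05. Without the 2 outlying 430B arrays 2 probe sets passed, both lower (0.00888%), and 1 of these was among the 93. Median centring gave 15 higher and 64 lower. At the level of genes, with 1 probe set for each of 18193 genes, 4 rose (0.0220%) and 21 fell (0.115%), the median log2 difference over all genes was 0.01, and the 3 arrays of the 2 groups did not overlap for 8.71% of genes in the higher and 8.60% in the lower direction.

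**Figure D1:**
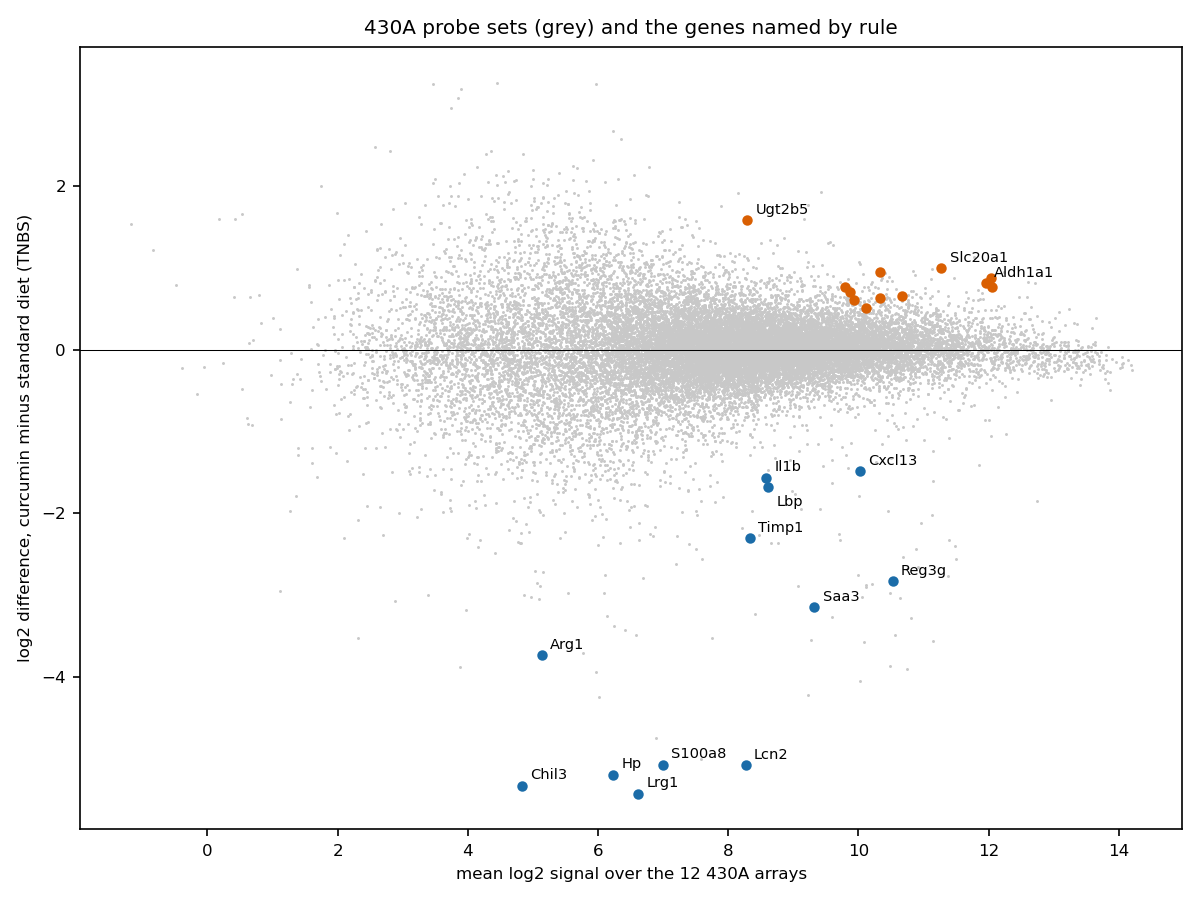
Log2 difference of curcumin minus standard diet under TNBS (y axis) against the mean log2 signal over the 12 430A arrays (x axis). Grey points are all 22626 probe sets, and blue and orange points are genes that the naming rule picked as lower or higher on curcumin. The lower genes reach log2 differences below -5, while the higher ones lie between 0 and 2.

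Lcn2, which encodes lipocalin 2, an antimicrobial protein that binds the iron carriers of bacteria, fell on the curcumin diet. Its signal was 134, 123 and 159 on the curcumin-TNBS arrays, against 6003, 2957 and 5714 on the standard-TNBS arrays. The groups lie far apart, and the curcumin-TNBS values resemble those with control enema, 82.1, 101 and 710.1 on curcumin and 56.9, 114 and 72.8 on the standard diet, of which only curcumin-control replicate 3 stands out. The log2 difference was -5.08 ± 0.64 (adjusted p = 0.0309), a signal 33.8 times higher on the standard diet, and it was -4.93 and -5.42 within the 2 array sets. It stayed between -5.41 and -4.90 when any 1 array was left out, though its call held in 2 of those 12 fits. Detection calls were not used here, so whether signals this low lie above the background of the array is not known. With 16 added to every signal, the array set as a term and the dimmest 40% of probe sets left out, the difference was -4.89 ± 0.61.

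Lbp, the lipopolysaccharide-binding protein that hands bacterial endotoxin to its receptor complex, fell too. Its signal was 261, 243 and 234 on the curcumin-TNBS arrays, against 892, 635 and 872 on the standard-TNBS arrays, with no overlap and little spread within the curcumin group. The log2 difference was -1.68 ± 0.22 (adjusted p = 0.0309), and -1.51 and -1.90 within the array sets. Another Lbp probe set, on 430B, had a difference of -0.03, so the fall rests on 1 of the 2. Clca4b, a calcium-activated chloride channel regulator measured on 430B, showed the same order of size as Lcn2: 214, 268 and 459 on the curcumin-TNBS arrays, against 12339.8, 4324 and 15797 on the standard-TNBS arrays. Every curcumin-TNBS array is below every standard-TNBS array, the 2 outlying arrays and replicate 1 alike. It fell by 4.99 on the log2 scale (standard error 0.56, adjusted p = 0.00963). Without the outlying arrays the difference was -5.46 ± 0.81 with an adjusted p of 0.154.

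**Figure D2:**
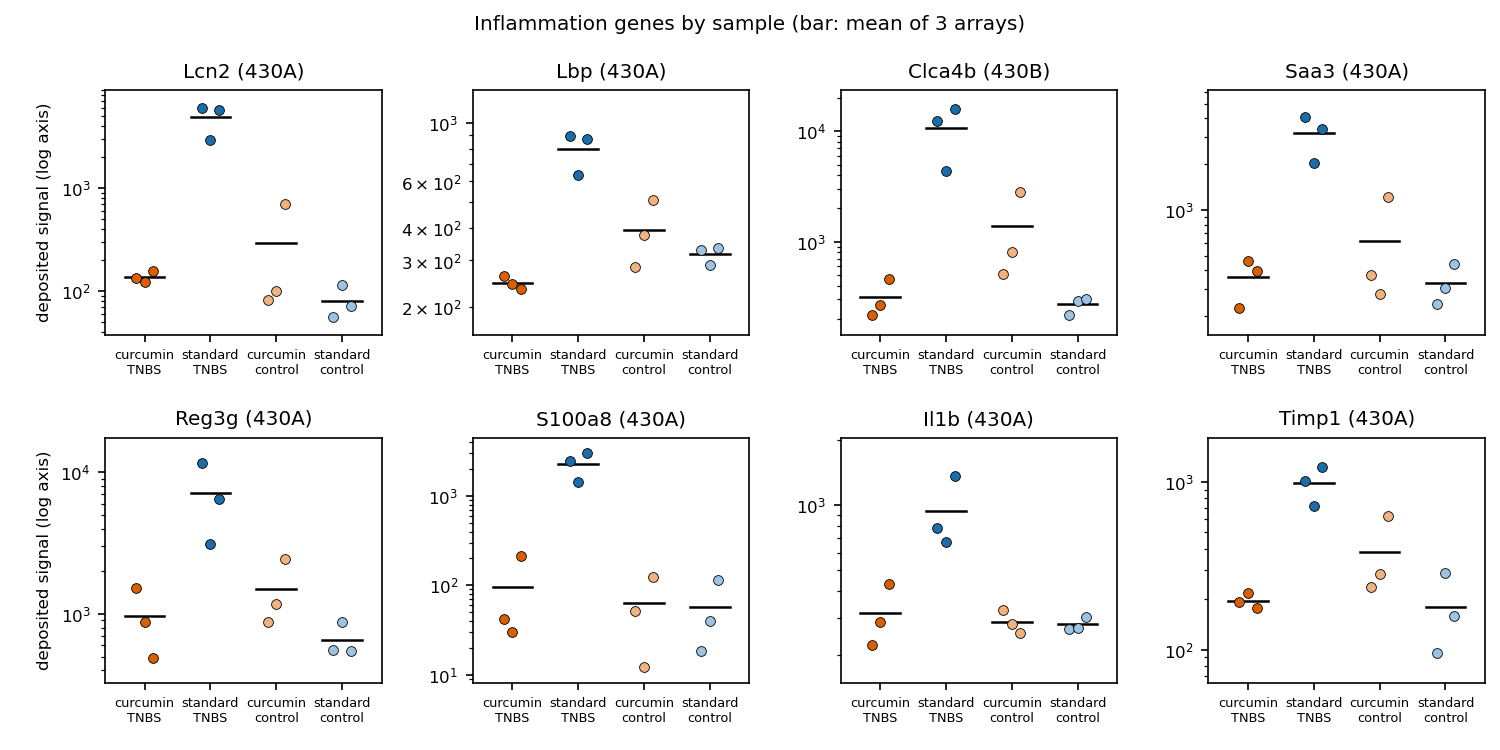
Deposited signal (y axis, log scale) of 8 genes in each sample, with 3 arrays a group as points and their mean as a bar, for the TNBS groups on the left and the control enema groups on the right of each panel. In all 8 genes the 3 curcumin-TNBS points lie below the 3 standard-TNBS points and within or near the range of the control enema groups.

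Other acute phase and antimicrobial genes were lower on curcumin without reaching the threshold in the fit described. Saa3, a serum amyloid A made by epithelial cells and macrophages, read 225, 462 and 392 on the curcumin-TNBS arrays, against 4098, 2023 and 3425 on the standard-TNBS arrays. Its log2 difference was -3.15 ± 0.48 (adjusted p = 0.0850), and it passed with a term for the array set (-3.27 ± 0.48, adjusted p = 0.0443). Reg3g, a lectin that kills Gram-positive bacteria, read 1522, 877 and 492 on the curcumin-TNBS arrays, against 11673, 3127 and 6482 on the standard-TNBS arrays. Here the groups do not overlap, but both vary several-fold: the difference was -2.83 ± 0.51 (adjusted p = 0.120) over all arrays and -1.56 and -4.15 within the array sets. Its relative Reg3b read 7774, 4049 and 3121 on the curcumin-TNBS arrays, against 21537, 14386 and 15069 on the standard-TNBS arrays, a log2 difference of -1.86 ± 0.37 (adjusted p = 0.162). Pla2g2a, a secreted phospholipase that attacks bacterial membranes, read 2479.7, 1972 and 1613 on the curcumin-TNBS arrays, against 11063, 8886 and 11868 on the standard-TNBS arrays. It had a difference of -2.40 ± 0.55 (adjusted p = 0.211). Haptoglobin (Hp), which binds free haemoglobin, was at 13.7, 19.7 and 82.6 on the curcumin-TNBS arrays, against 734, 736 and 2038 on the standard-TNBS arrays. Lrg1, a leucine-rich glycoprotein of the acute phase that neutrophils also store, read 66.5, 29.3 and 35.6 on the curcumin-TNBS arrays, against 2284, 1198 and 2025 on the standard-TNBS arrays. Those were among the largest differences of the data, -5.20 ± 0.97 for Hp and -5.43 ± 0.94 for Lrg1. Yet the signals on curcumin are low, those of Hp are also scattered, and the adjusted p-values were 0.142 and 0.120. The curcumin-control arrays, which share the estimate of the spread, read 34.9, 16.7 and 348.2 for Hp and 22.7, 13.1 and 373.7 for Lrg1.

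Of the list of acute phase and antimicrobial genes, 36 are on the arrays. Lcn2, Lbp and Clca4b fell, and none rose. 33 of the 36 had a negative difference, in 18 of them without overlap between the groups (50%, beside 8.60% of all genes), and the median was -0.71, beside 0.01 over all genes. Within the array sets the list's median was -0.85 and -0.93. The summed signal of the list was 58000.4 to 84948 in the curcumin-TNBS samples and 119792 to 164089.5 in the standard-TNBS samples. With control enema the sums were 64481 to 100727 on curcumin and 68686 to 78612 on the standard diet.

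The promoters of genes that were lower or higher together were searched for 3 motifs on both strands, in windows of 250 bases before to 50 bases after the gene's start from the RefSeq table of build GRCm38.p6. The motifs are the kappa B consensus, the STAT motif TTCNNNGAA and the C/EBP motif TTGCNNAA. STAT factors and C/EBP factors carry the response to interleukin 6 and related cytokines. Of the 12 430A genes named as lower, 9 have a window (Arg1, Hp and Lbp are named only). The kappa B consensus was in 1 of the 9 (Reg3g), the STAT motif in 1 (Chil3) and the C/EBP motif in 3 (Lcn2, Saa3 and Cxcl13). Of the 12 named as higher, 11 have one, with the kappa B consensus in 1 (Cat), the STAT motif in 0 and the C/EBP motif in 3 (Aldh1a1, Tacc2 and Ugt2b5). Over the 9887 genes of 430A with a window the shares were 8.28%, 8.45% and 11.1%. A gene was counted if any of its windows held the motif. Aldh1a1 and Tacc2 each have a further window with no match to any of the 3 motifs, for Aldh1a1 at chr19:20601718-20602017. Windows of 3 lower genes and of Aldh1a1, the gene that rose, are printed to show a match in each, which is in capitals. They are chr2:32387690-32387989 for Lcn2, chr7:46715627-46715926 for Saa3 and chr6:78468825-78469124 for Reg3g, all on the minus strand, and chr19:20492333-20492632 for Aldh1a1 on the plus strand. Matches start at -216 for Lcn2, -99 for Saa3 (C/EBP, both), -123 for Reg3g (kappa B) and -13 for Aldh1a1 (C/EBP). Positions are counted from the gene start of the printed window, and no other motif overlaps the matches. A match is a stretch of letters and not a measured binding site.
Lcn2: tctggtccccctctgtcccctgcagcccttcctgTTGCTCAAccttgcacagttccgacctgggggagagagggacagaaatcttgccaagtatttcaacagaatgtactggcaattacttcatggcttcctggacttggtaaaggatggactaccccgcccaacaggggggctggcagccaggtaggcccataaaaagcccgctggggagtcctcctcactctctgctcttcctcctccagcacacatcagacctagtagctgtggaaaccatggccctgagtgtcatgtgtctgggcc
Saa3: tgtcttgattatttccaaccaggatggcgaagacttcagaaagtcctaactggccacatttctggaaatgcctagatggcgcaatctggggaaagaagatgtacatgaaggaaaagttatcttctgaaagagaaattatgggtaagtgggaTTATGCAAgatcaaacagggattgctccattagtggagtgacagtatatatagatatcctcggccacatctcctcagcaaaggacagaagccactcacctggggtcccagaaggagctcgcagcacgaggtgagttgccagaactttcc
Reg3g: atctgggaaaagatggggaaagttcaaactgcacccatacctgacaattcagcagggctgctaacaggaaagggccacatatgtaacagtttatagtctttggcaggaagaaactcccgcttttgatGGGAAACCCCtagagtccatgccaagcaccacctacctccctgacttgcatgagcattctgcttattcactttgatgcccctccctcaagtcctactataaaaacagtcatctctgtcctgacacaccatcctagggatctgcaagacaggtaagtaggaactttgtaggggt
Aldh1a1: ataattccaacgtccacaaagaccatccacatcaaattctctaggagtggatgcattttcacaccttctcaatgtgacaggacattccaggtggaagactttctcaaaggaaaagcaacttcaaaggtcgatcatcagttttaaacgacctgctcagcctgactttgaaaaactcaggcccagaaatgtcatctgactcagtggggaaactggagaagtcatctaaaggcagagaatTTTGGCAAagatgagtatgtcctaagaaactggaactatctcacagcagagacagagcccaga

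Most genes of neutrophils, the first white cells to enter inflamed tissue, were lower on curcumin. S100a8 and S100a9, the subunits of calprotectin, a metal-binding protein that fills the cytoplasm of neutrophils, gave the widest gap. S100a8 read 42.6, 30.4 and 212 on the curcumin-TNBS arrays, against 2458, 1431 and 2989 on the standard-TNBS arrays. For S100a9 the values were 16.8, 91.7 and 232 on the curcumin-TNBS arrays, against 1558, 1273 and 3459.9 on the standard-TNBS arrays. No curcumin-TNBS array reaches a standard-TNBS array in either gene, and the log2 differences were -5.07 ± 0.91 (adjusted p = 0.120) and -4.74 ± 1.08 (adjusted p = 0.206). Ngp, a protein of neutrophil granules, read 159.6, 263 and 347 on the curcumin-TNBS arrays, against 874, 446 and 538 on the standard-TNBS arrays. Its difference was -1.28 ± 0.33 (adjusted p = 0.277), and it passed with a term for the array set (-1.52 ± 0.19, adjusted p = 0.0221). Mmp8, the neutrophil collagenase, was at 127 to 218 on curcumin and 286 to 458 on the standard diet, and Csf3r, the receptor of granulocyte colony-stimulating factor, at 54.0 to 199 on curcumin and 245 to 427 on the standard diet. Their differences were -1.05 ± 0.27 (adjusted p = 0.277) and -1.85 ± 0.41 (adjusted p = 0.202). Cxcr2, a further neutrophil marker, was not lower: its groups overlap, with a difference of 0.15 ± 0.55 (adjusted p = 0.983). It read 40.5, 186.4 and 80.6 on the curcumin-TNBS arrays, against 64.3, 117.5 and 59.3 on the standard-TNBS arrays.

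Over the 20 neutrophil genes on the arrays, 18 had a negative difference, 11 without overlap (55%, beside 8.60% of all genes), and 0 of 20 passed the threshold. The median was -0.72, and -1.02 and -0.87 within the array sets. Their summed signal was 3395 to 4908 in the curcumin-TNBS samples and 8295 to 13394 in the standard-TNBS samples. It was 4221 to 4783 with the curcumin diet and control enema and 3838 to 4492 with the standard diet and control enema. In RNA of a whole colon, fewer cells of a type and less RNA per cell cannot be told apart.

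Macrophage genes were lower by less as a list, though single genes differed by more. Arg1, the arginase of tissue-remodelling macrophages, read 32.7, 12.8 and 11.0 on the curcumin-TNBS arrays, against 209, 136 and 380.4 on the standard-TNBS arrays. Chil3, a chitinase-like protein of mouse macrophages and neutrophils, read 6.00, 10.9 and 11.5 on the curcumin-TNBS arrays, against 643, 202 and 379 on the standard-TNBS arrays. Both groups are clear of each other in the 2 genes, although the curcumin values are among the dimmest on the array. The differences were -3.73 ± 0.54 (adjusted p = 0.0700) and -5.33 ± 0.80 (adjusted p = 0.0810), and both passed with a term for the array set (adjusted p = 0.0221 and 0.0443). Tyrobp, a signalling adaptor of myeloid cells, read 537, 453 and 484 on the curcumin-TNBS arrays, against 892, 713 and 844 on the standard-TNBS arrays, a difference of -0.73 ± 0.15 (adjusted p = 0.179). Retnla, a resistin-like protein of alternatively activated macrophages, overlapped between the groups, with a difference of 0.08 ± 0.25 (adjusted p = 0.979). Csf1r, the growth factor receptor that all macrophages carry, differed by only -0.24 ± 0.11. Of the 32 macrophage genes, 28 had a negative difference, 13 without overlap (40.6%, beside 8.60% of all genes), 0 of 32 passed, and the median was -0.34. Their summed signal was 24258 to 27078 in the curcumin-TNBS samples and 29629 to 35429 in the standard-TNBS samples.

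Among the cytokines, interleukin 1 beta was lower and several others did not differ by more than their spread. Il1b, the main fever-inducing cytokine of macrophages and neutrophils, read 225, 286 and 430.1 on the curcumin-TNBS arrays, against 780, 671 and 1370.1 on the standard-TNBS arrays. The highest curcumin value is below the lowest standard value. Its difference was -1.57 ± 0.28 (adjusted p = 0.120), -2.09 and -1.15 within the array sets, and the adjusted p was 0.0426 with a term for the array set, 16 added and dim probe sets left out. In that same fit Tgfb1, which encodes transforming growth factor beta 1, also passed (adjusted p = 0.0460), with signals of 294, 305 and 315 on the curcumin-TNBS arrays, against 517, 487 and 618 on the standard-TNBS arrays. Its difference was -0.82 ± 0.15 in the fit described first (adjusted p = 0.142), while another Tgfb1 probe set gave 0.33. Ptgs2, the inducible cyclooxygenase that makes prostaglandins, read 204, 187 and 203 on the curcumin-TNBS arrays, against 521, 390.2 and 414 on the standard-TNBS arrays, a difference of -1.15 ± 0.27 (adjusted p = 0.229). Il6, the cytokine that drives the acute phase, was dim at 31.7 to 86.3 on curcumin and 129 to 142 on the standard diet, a difference of -1.38 ± 0.41 (adjusted p = 0.362).

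Tnf, the cytokine tumour necrosis factor, read 204, 289.5 and 252 on the curcumin-TNBS arrays, against 293, 258 and 144 on the standard-TNBS arrays, so that the groups overlap (0.15 ± 0.37). Overlap was also seen for the cytokines of T cells: Ifng had a difference of 0.19 ± 0.46, Il17a of 0.24 ± 0.38 and the regulatory cytokine Il10 of -0.02 ± 0.31. For all 4 the sign depended on the fit. Nos2, the inducible nitric oxide synthase, was at 9.00, 10.7 and 12.3 in the curcumin-TNBS arrays and 68.8, 25.2 and 10.4 in the standard-TNBS arrays, where the lowest standard array lies within the curcumin range. The list of 24 inflammatory mediators had a median of -0.24, 6 members lower without overlap (25%, beside 8.60% of all genes) and none higher, and none passed.

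No chemokine passed the threshold, and some were lower on curcumin without overlap. Cxcl2, a neutrophil attractant, read 65.0, 86.6 and 174 on the curcumin-TNBS arrays, against 417, 244 and 1113 on the standard-TNBS arrays. Cxcl13, which guides B cells into lymphoid follicles, read 725, 606 and 903 on the curcumin-TNBS arrays, against 2109, 1559.7 and 2659.7 on the standard-TNBS arrays. Neither overlaps between the groups, and the differences were -2.28 ± 0.53 (adjusted p = 0.222) and -1.49 ± 0.28 (adjusted p = 0.142). Another Cxcl13 probe set gave -1.63. Cxcl1, a further neutrophil attractant, ranged over 71.4 to 126 on curcumin and 207 to 390.2 on the standard diet (-1.50 ± 0.51), but its other 2 probe sets gave -0.55 and 0.14. Of 30 chemokines, 10 were lower and 0 higher without overlap (33.3% and 0%, beside 8.60% and 8.71% of all genes), with a median of -0.30.

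Genes of the NF-kappa B pathway and its targets had a median of -0.09 over 33 genes, none past the threshold. Of these 7 were lower without overlap (21.2%, beside 8.60% of all genes) and 1 higher (3.03%, beside 8.71%). Nfkbia, the inhibitor that the factor induces itself, read 6127, 5736 and 6040.5 on the curcumin-TNBS arrays, against 6311, 6985 and 7626 on the standard-TNBS arrays (-0.22 ± 0.11, adjusted p = 0.668). Its other 4 probe sets gave -0.74 to -0.22. Rela, the p65 subunit, read 1538, 1429.8 and 1427 on the curcumin-TNBS arrays, against 1233, 1236 and 1288 on the standard-TNBS arrays and was the only member higher without overlap (0.23 ± 0.14, adjusted p = 0.778). Bcl3, a nuclear cofactor of the pathway, was at 219.5 to 294 on curcumin and 364 to 564 on the standard diet (-0.86 ± 0.23, adjusted p = 0.284). Among 22 genes of interleukin 6 and Stat3 signalling the median was -0.33, with 7 lower without overlap (31.8%). Among these, Cebpb, the C/EBP factor of the acute phase, read 514, 517 and 389 on the curcumin-TNBS arrays, against 1009.5, 753 and 926 on the standard-TNBS arrays, a difference of -0.92 ± 0.22 (adjusted p = 0.224). Interferon-induced genes had a median of -0.20 over 34 genes, 3 of them lower without overlap, a share of 8.82% that is close to the 8.60% of all genes.

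Genes of the extracellular matrix and its turnover were mostly lower: 22 of 41 were lower without overlap (53.7%, beside 8.60% of all genes) and 1 higher. The median was -0.52 and -0.45 and -0.44 within the array sets, and 0 of 41 passed. Timp1, the inhibitor of matrix metalloproteinases that rises in injured tissue, read 194, 216 and 178 on the curcumin-TNBS arrays, against 1017, 722 and 1221 on the standard-TNBS arrays. The groups are far from overlapping, the difference was -2.30 ± 0.41 (adjusted p = 0.120), and the adjusted p was 0.0446 with a term for the array set, 16 added and dim probe sets left out. Lox, the enzyme that cross-links collagen, read 335, 349 and 449.5 on the curcumin-TNBS arrays, against 1252, 921 and 1667 on the standard-TNBS arrays, with a difference of -1.73 ± 0.42 (adjusted p = 0.242), though its 2 other probe sets gave -0.80 and 0.09. Mmp9, a gelatinase of neutrophils and macrophages, was at 158 to 211 on curcumin and 339 to 541 on the standard diet (-1.24 ± 0.24, adjusted p = 0.156), and Mmp10, a stromelysin of wounded epithelium, at 32.7 to 48.6 on curcumin and 102 to 301 on the standard diet (-2.29 ± 0.50, adjusted p = 0.199).

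Higher on curcumin were genes of epithelial metabolism and detoxification, led by Aldh1a1, which encodes the enzyme that makes retinoic acid from retinal. Its signal was 4893, 5131 and 4938 on the curcumin-TNBS arrays, against 2873, 3131 and 2557 on the standard-TNBS arrays. The spread within each group is small beside the gap, and the control enema groups lie between, at 3895 to 4482 on curcumin and 3915 to 4343 on the standard diet. Aldh1a1 rose by 0.81 ± 0.11 on the log2 scale (adjusted p = 0.0309), 1.75-fold, and by 0.79 and 0.81 within the array sets. The remaining probe set past the threshold on 430A names Ssr4, a subunit of the translocon-associated protein complex, but the gene gives no clear direction. That probe set read 404, 461 and 461 on the curcumin-TNBS arrays, against 124, 115 and 111 on the standard-TNBS arrays (1.92 ± 0.24, adjusted p = 0.0309), while the other 2 probe sets of Ssr4 had differences of -0.12 and -0.06.

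Abcb1a, the drug efflux pump P-glycoprotein of the gut surface, read 5220.4, 5319.8 and 4639.5 on the curcumin-TNBS arrays, against 2231, 3444 and 2710.1 on the standard-TNBS arrays. Its difference was 0.88 ± 0.14 (adjusted p = 0.106) and 0.88 in its other probe set, and it passed with a term for the array set (0.94 ± 0.13, adjusted p = 0.0257). Catalase (Cat), which breaks down hydrogen peroxide in peroxisomes, read 1479, 1978 and 1793 on the curcumin-TNBS arrays, against 964, 874 and 856 on the standard-TNBS arrays. It too passed with a term for the array set (0.84 ± 0.10, adjusted p = 0.0221), against 0.95 ± 0.17 (adjusted p = 0.120) without it. Ugt2b5, an enzyme that couples glucuronic acid to drugs and steroids, had the largest difference of the 12 genes named as higher on 430A: 613, 417 and 315 on the curcumin-TNBS arrays, against 139.7, 180.4 and 118 on the standard-TNBS arrays, which is 1.59 ± 0.26 (adjusted p = 0.106). All curcumin values of these 3 genes are above all standard values.

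**Figure D3:**
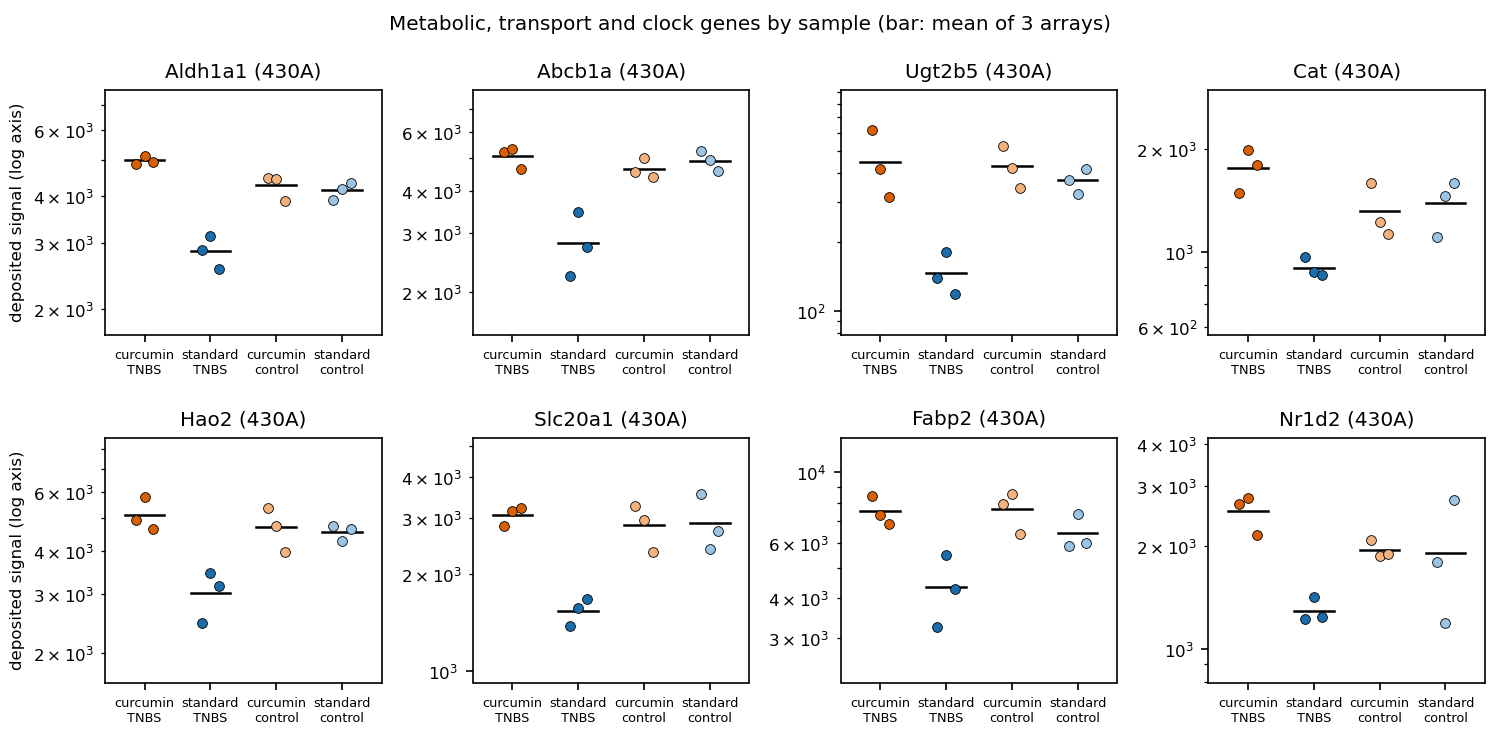
Deposited signal (y axis, log scale) of 8 metabolic, transport and clock genes in each sample, with 3 arrays a group as points and their mean as a bar, TNBS groups on the left and control enema groups on the right. In every panel the 3 standard-TNBS points lie below the 3 curcumin-TNBS points, and in all but that of Nr1d2 they are the lowest of the 12.

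In the xenobiotic metabolism list 45 genes are on the arrays and 37 had a positive difference, 23 of them without overlap (51.1%, beside 8.71% of all genes), against 1 lower. Aldh1a1 was the only member that rose, and none fell. The median was 0.54, 0.41 and 0.60 within the array sets and 0.02 for the same diets with control enema. Summed, the list read 65471 to 71383 in the curcumin-TNBS samples and 42946 to 54959.7 in the standard-TNBS samples, beside 58156 to 73856 with curcumin and control enema and 63230.5 to 71954 with the standard diet and control enema. Gstm1, a glutathione transferase, read 2492, 2715 and 2333 on the curcumin-TNBS arrays, against 1311, 1854 and 1739.8 on the standard-TNBS arrays (0.63 ± 0.16, adjusted p = 0.264). Cyp1a1, the cytochrome P450 that ligands of the aryl hydrocarbon receptor induce, was dim, at 116 to 279 on curcumin and 64.3 to 99.3 on the standard diet (1.01 ± 0.56, adjusted p = 0.729).

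Targets of Nrf2, the factor that answers to electrophiles such as curcumin in cell cultures, and genes of glutathione had a median of 0.07 over 44 genes. Of these 8 were higher without overlap (18.2%, beside 8.71% of all genes) and 4 lower (9.09%, beside 8.60%). None passed the threshold, and with a term for the array set Cat did, while the median was 0.18. Nqo1, a textbook target of Nrf2, read 627, 789 and 824 on the curcumin-TNBS arrays, against 604, 619.7 and 634 on the standard-TNBS arrays (0.26 ± 0.17), and Hmox1, the haem oxygenase, 76.0, 101 and 39.0 on the curcumin-TNBS arrays, against 48.7, 138 and 202 on the standard-TNBS arrays (-0.73 ± 0.97). Both overlap between the groups. Gpx3, a secreted glutathione peroxidase, was lower at 1179 to 1286 on curcumin and 2026 to 2222 on the standard diet (-0.80 ± 0.20, adjusted p = 0.242). Cth, which makes cysteine for glutathione, was higher at 1017 to 1173 on curcumin and 629 to 748 on the standard diet (0.70 ± 0.12, adjusted p = 0.120).

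Some absorptive and lipid genes were higher on curcumin without reaching the threshold. Slc20a1, a phosphate transporter, read 2832, 3139 and 3221 on the curcumin-TNBS arrays, against 1381, 1565 and 1671 on the standard-TNBS arrays, a difference of 1.00 ± 0.16 (adjusted p = 0.106), with 0.44 and 0.49 in its other probe sets. Hao2, a peroxisomal hydroxyacid oxidase, read 4946, 5768 and 4639 on the curcumin-TNBS arrays, against 2463, 3450.2 and 3152 on the standard-TNBS arrays (0.77 ± 0.15, adjusted p = 0.156). Fabp2, the fatty acid binding protein of enterocytes, read 8423, 7315 and 6845 on the curcumin-TNBS arrays, against 3261, 5462 and 4274 on the standard-TNBS arrays (0.82 ± 0.18, adjusted p = 0.202). None of the 3 overlaps between the groups. Pparg, the nuclear receptor that controls lipid genes in the colon epithelium and in fat, was at 486 to 846 on curcumin and 295 to 469 on the standard diet (0.82 ± 0.23, adjusted p = 0.311). Of 50 absorptive colonocyte genes 17 were higher and 4 lower without overlap (34% and 8%, beside 8.71% and 8.60% of all genes), with a median of 0.15. Of 34 fatty acid and PPAR genes 5 were higher and 1 lower without overlap (14.7% and 2.94%), with a median of 0.15. None of either list passed the threshold.

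No clock gene passed the threshold, and those without overlap lay in both directions. Dbp and Nr1d2, rhythmic parts of the circadian clock and its output, read 1185, 1335 and 1080.1 on the curcumin-TNBS arrays, against 325, 505 and 683 on the standard-TNBS arrays for Dbp and 2663, 2779 and 2153 on the curcumin-TNBS arrays, against 1225, 1415 and 1240.5 on the standard-TNBS arrays for Nr1d2. Both are higher on curcumin without overlap (1.31 ± 0.37, adjusted p = 0.305, and 0.96 ± 0.23, adjusted p = 0.236). Nfil3, which represses the sites that Dbp activates, was dim and lower, at 27.6, 17.7 and 17.9 on curcumin and 236, 95.5 and 111 on the standard diet (-2.72 ± 0.73, adjusted p = 0.292). The hour of the day at which each colon was taken is not given in the labels, and its part in these values was not tested. Of 20 clock genes 7 were higher and 2 lower without overlap (35% and 10%, beside 8.71% and 8.60% of all genes).

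Cell cycle genes were lower by a small amount: 33 of 37 had a negative difference, 9 without overlap (24.3%, beside 8.60% of all genes), and the median was -0.29. Within the array sets the median was -0.13 and -0.53. Rrm2, a subunit of the enzyme that makes DNA building blocks, read 377, 337 and 199.6 on the curcumin-TNBS arrays, against 754, 486 and 786 on the standard-TNBS arrays (-1.17 ± 0.26, adjusted p = 0.202), and its 2 other probe sets gave -1.05 and -0.92. Among goblet cell genes Retnlb, a resistin-like antimicrobial protein, read 4244, 3395 and 2309 on the curcumin-TNBS arrays, against 11044, 7286 and 7743 on the standard-TNBS arrays, a difference of -1.41 ± 0.42 (adjusted p = 0.362). The whole goblet and secretory list had a median of -0.14 over 38 genes. Ptch1, the receptor of Hedgehog ligands that the gut stroma carries, was higher at 939.8 to 1162 on curcumin and 542 to 699 on the standard diet (0.77 ± 0.13, adjusted p = 0.106), but its other probe sets gave -0.71 and -0.57.

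Markers of tissue other than the colon wall were also present and did not follow the groups in a simple way. Cpa1, a digestive enzyme of the pancreas, read 10027, 19.3 and 1762 on the curcumin-TNBS arrays, against 8893, 2759 and 12428 on the standard-TNBS arrays and spans a wide range in both groups, which overlap. Over 24 genes of pancreatic acinar cells the summed signal was 45334 to 180919 in the curcumin-TNBS samples and 109001 to 232146 in the standard-TNBS samples, and the median difference was -2.35 over all arrays and 0.29 and -4.15 within the array sets. Fat cell genes were higher on curcumin, with a median of 0.58 over 19 genes and 18 positive. Their sums were 21175 to 34862 in the curcumin-TNBS samples and 11501 to 26206 in the standard-TNBS samples, which overlap. Adipoq, the fat hormone adiponectin, read 1909, 2341 and 1556 on the curcumin-TNBS arrays, against 666, 2145 and 1479.6 on the standard-TNBS arrays. The part of attached fat or pancreas in the results above was not tested. Smooth muscle genes had a median of 0.04 and T and NK cell genes of -0.09.

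**Figure D4:**
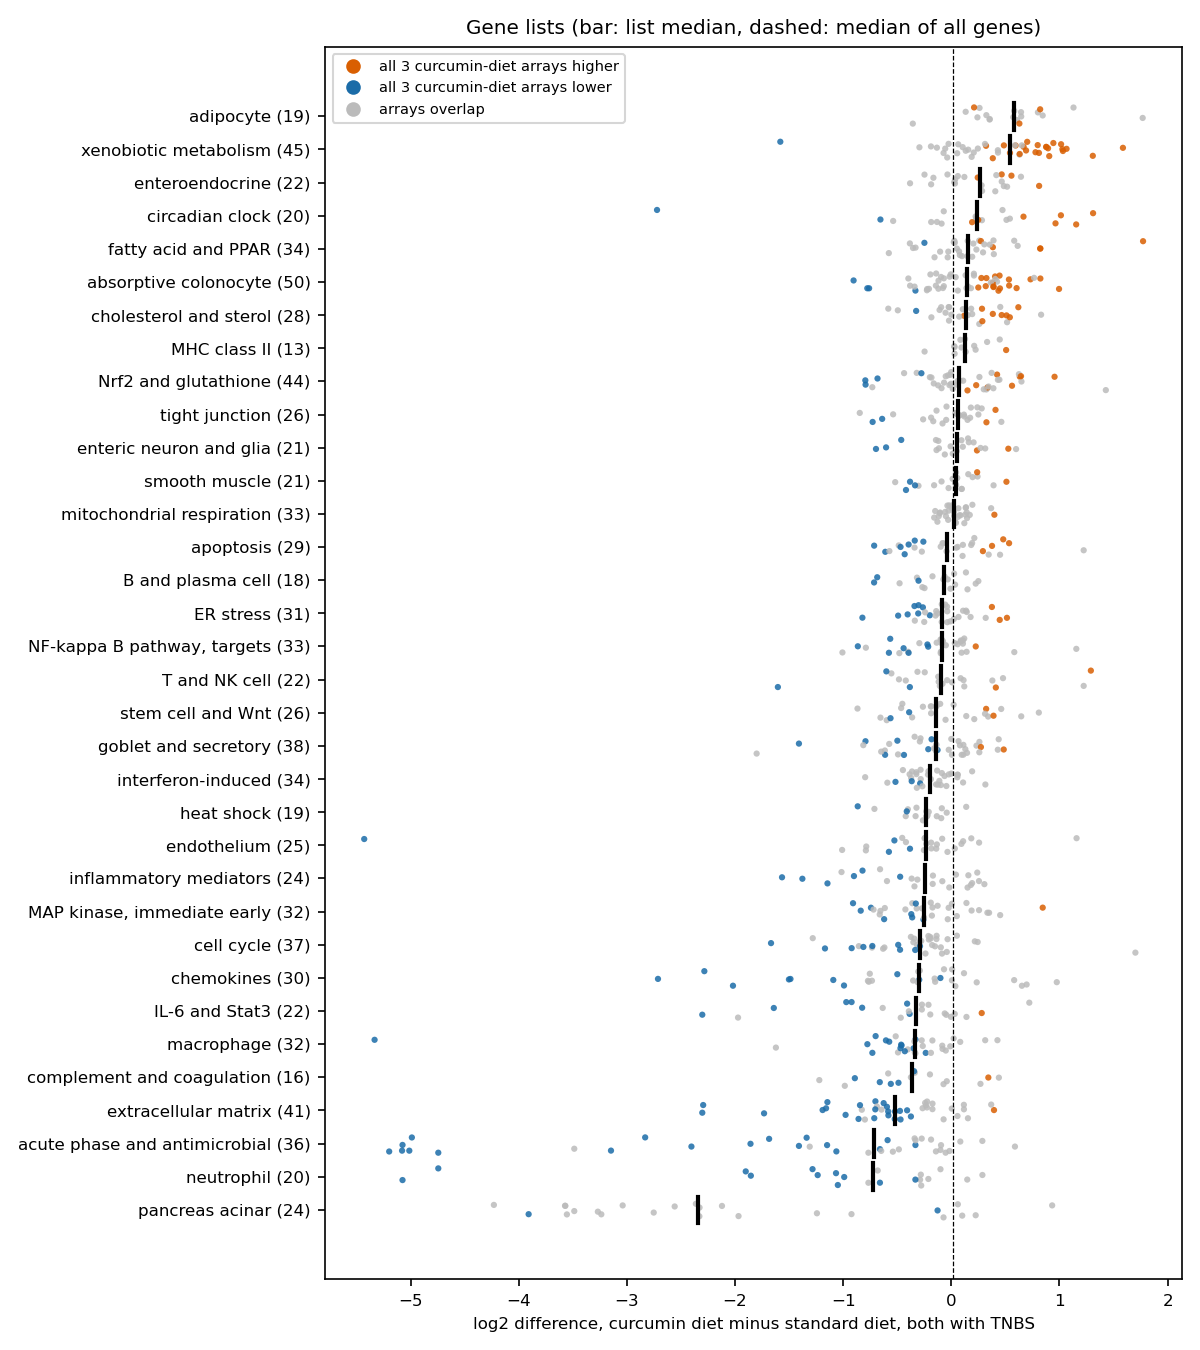
Log2 difference of curcumin minus standard diet under TNBS (x axis) for each member (points) of 34 gene lists (rows, with the number of genes on the arrays), and the list median (bar). Blue and orange mark members whose 3 arrays do not overlap between the groups. The dashed line is the median over all genes: the pancreas acinar list lies farthest left of it (-2.35), then the neutrophil, acute phase and matrix lists, and the adipocyte (0.58) and xenobiotic metabolism (0.54) lists lie farthest right.

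On 430B the 66 lower and 27 higher probe sets kept their direction in curcumin-TNBS replicate 1 in 66 and 27 cases. Replicate 1 is itself part of the fit that picked these probe sets, so the shared direction is no separate check of the calls. The median absolute log2 difference of these probe sets was 2.02 over the 3 arrays and 1.48 in replicate 1 alone. Rhbdf2, a rhomboid-like protein that brings the protease of tumour necrosis factor to the cell surface, read 253, 222 and 188 on the curcumin-TNBS arrays, against 759, 994 and 1146 on the standard-TNBS arrays. It fell by 2.12 (standard error 0.27, adjusted p = 0.0104), and without the outlying arrays the difference was -1.91 (adjusted p = 0.232). Csf2rb, the shared receptor chain for interleukin 3, interleukin 5 and granulocyte-macrophage colony-stimulating factor, read 1037, 1139 and 749.6 on the curcumin-TNBS arrays, against 2874, 2375 and 3199.6 on the standard-TNBS arrays (-1.54 ± 0.21, adjusted p = 0.0163). Its dim 430A probe set gave -1.23 ± 0.99. Fut2, the fucosyltransferase that decorates epithelial glycans, read 2794, 1624 and 1432 on the curcumin-TNBS arrays, against 11754, 6473 and 8781 on the standard-TNBS arrays (-2.23 ± 0.33, adjusted p = 0.0234), and its 430A probe set gave -0.81 ± 0.38.

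Other 430B calls conflict with further probe sets of the same gene. A probe set of Mapk14, the p38 stress kinase, fell (-2.17 ± 0.26, adjusted p = 0.00963), while the 2 brightest of its 430A probe sets gave 0.35 and -0.11. Its dimmer 430A probe sets gave 0.06 and -1.55, and another on 430B gave 0.09. For Il1r1, the receptor of interleukin 1, a very dim 430B probe set rose (2.79 ± 0.49, adjusted p = 0.0376, signals of 68.1, 23.8 and 51.1 on the curcumin-TNBS arrays, against 6.80, 5.40 and 6.80 on the standard-TNBS arrays), while the 430A probe set gave -1.04 ± 0.57. Of the genes with no 430A probe set, each taken by its brightest 430B probe set, those that fell most after Clca4b were Dis3l (-2.67 ± 0.52, adjusted p = 0.0475), Nob1 (-2.56 ± 0.48, adjusted p = 0.0421), Prdm11 (-2.49 ± 0.44, adjusted p = 0.0376) and Trmt61a (-2.34 ± 0.34, adjusted p = 0.0218), which include enzymes of RNA processing (Dis3l, Trmt61a) and a ribosome assembly factor (Nob1). Another probe set of Prdm11 gave only -0.35. Nob1 read 668, 108 and 191 on the curcumin-TNBS arrays, against 1770.5, 1069 and 1499 on the standard-TNBS arrays, and its replicate 1 stands above the outlying arrays. Without the outlying arrays the differences of Dis3l, Nob1 and Trmt61a were nearer to 0, at -1.64, -1.08 and -1.37. Of the genes taken in this way Hectd2os, Gm5219 and Tex55 rose, all dim: Tex55 read 168, 249.6 and 292 on the curcumin-TNBS arrays, against 56.0, 33.7 and 52.4 on the standard-TNBS arrays. The remaining higher 430B calls carry no single symbol or belong to genes with a 430A or a brighter 430B probe set.

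**Figure D5:**
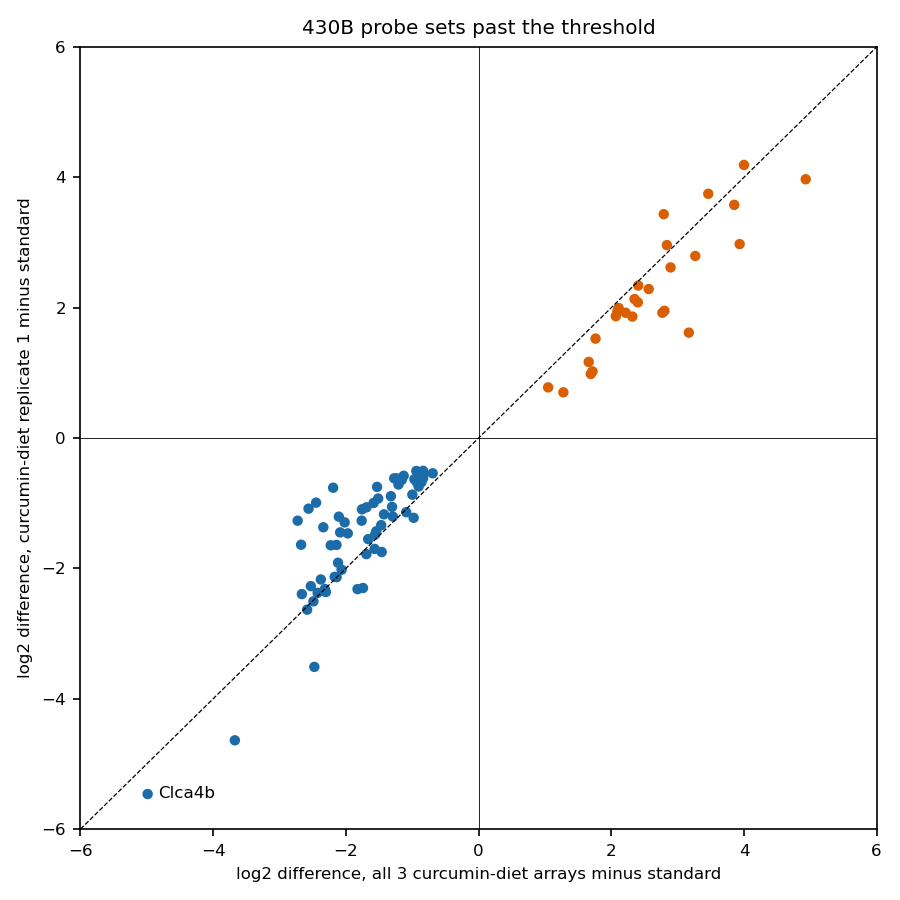
The 93 probe sets past the threshold on 430B, with the log2 difference over all 3 curcumin-TNBS arrays (x axis) and that of curcumin-TNBS replicate 1 alone (y axis), each against the mean of the standard-TNBS arrays. All points lie in the lower left or upper right corner, most of them nearer to 0 in replicate 1 than on the dashed line of equal values. Replicate 1 is part of both axes and of the fit that picked the probe sets, so the shared direction is no separate check.

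With a control enema in place of TNBS, the same diets differed in 0 of 22626 probe sets on 430A (0% called, 640 at an unadjusted p under 0.05) and 1 of 22511 on 430B (0.00444%, 1007 unadjusted). For Lcn2 the difference with control enema was 1.21 ± 0.64 and for Aldh1a1 0.04 ± 0.11. The interaction, the difference under TNBS minus that under control enema, was -6.29 ± 0.91 for Lcn2 (adjusted p = 0.246) and 0.77 ± 0.15 for Aldh1a1 (adjusted p = 0.291). It passed for 0 probe sets on 430A (0%, with 1842 or 8.14% unadjusted) and 4 on 430B (0.0178%, with 3347 or 14.9% unadjusted), among them Clca4b at -6.96 ± 0.79 (adjusted p = 0.0109).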

How the data were processed

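Total RNA of whole colon, extracted with Trizol, was labelled (10 ug per sample) and hybridised to Affymetrix 430A and 430B arrays, per the labels' protocols. GCOS is the software named for the deposited intensity values, per the submitters' processing notes (version not given in the sources used here). The values are linear, and their 2% trimmed mean is close to 500 on each array, so the authors had scaled them to a common mean. Precision is limited by the number of arrays.

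Control probe sets (IDs starting with AFFX) were left out, and the log2 of the deposited signal, with nothing added and no filter, was fitted for each array type alone with limma 3.58.1 (lmFit, eBayes with an intensity trend) in R 4.3.3, with a mean for each of the 4 groups of 3 arrays and 8 residual degrees of freedom. P-values are two-sided, and an adjusted p under 0.05 is past the threshold. Exact permutation of 3 against 3 samples cannot go below p = 0.1 and was not used. The fit was tested on simulated data.

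Symbols come from the platform annotation: 20380 of 22626 probe sets on 430A have 1 gene symbol, 691 several and 1555 none, and on 430B 14661 of 22511 have 1, 245 several and 7605 none. At the gene level the probe set with the highest mean was taken, from 430A where the gene is there (12393 genes) and otherwise from 430B (5800). Named are up to 12 genes in each direction on 430A and 6 on 430B, those past the threshold by size and then, as values, those with the smallest p, without overlap and with a mean of at least 200 in the higher group; up to 3 members of each of the 34 lists with the smallest p; a set of colitis genes and tissue markers whatever their p; and genes with an interaction. Lyz2, Ogn, Akr1c13, Hadh, Slc9a3 and others the rule picks are left out for room. Ssr4, Fut2, Csf2rb, Mapk14, Il1r1, Casp9 and Retnla lie outside the rule and were picked once their values were known. The comparison, the lists and the rule were chosen with earlier results of these data known, so lists are described by counts and medians with no test. Alternatives tried were other added constants, filters, scalings and weights, the array set as a term, leaving out arrays, and stricter thresholds.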

Additional observations from a re-analysis of the deposited data

Results flagged for a closer look

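For 4 probe sets on 430B the diet difference under TNBS differed from that under control enema, by limma's test of the interaction (log2 difference under TNBS minus that under control enema). For Clca4b the interaction was -6.96 ± 0.79 (adjusted p = 0.0109). Its signals with control enema were 510.1, 808 and 2830 on curcumin and 216, 291 and 304 on the standard diet, so that with this enema the curcumin arrays are the higher ones. For Rhbdf2 it was -3.22 ± 0.38 (adjusted p = 0.0109), with control enema signals of 587, 721 and 481 on curcumin and 201, 283 and 362 on the standard diet. A probe set of Casp9, the caspase that starts mitochondrial cell death, gave -3.89 ± 0.48 (adjusted p = 0.0109). It read 302, 286 and 292 on the curcumin-TNBS arrays, against 1222, 1227 and 1232 on the standard-TNBS arrays, but the other 2 probe sets of Casp9 had TNBS differences of 0.26 and 0.35. For Tmem181a, a membrane protein, the interaction was -2.28 ± 0.31 (adjusted p = 0.0290), and its TNBS signals were 3502, 1788 and 2032 on the curcumin-TNBS arrays, against 7115, 5610.4 and 7415 on the standard-TNBS arrays. Without the 2 outlying arrays, which belong to the curcumin-TNBS group, the interactions were -7.44 for Clca4b (adjusted p = 0.119) and -3.02, -3.84 and -1.70 for Rhbdf2, Casp9 and Tmem181a (adjusted p = 0.190 each). No group holds 4 or more arrays of a type, so no sample was tested as an outlier within its group.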

How the results depend on the processing

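On 430A the 4 probe sets past the threshold under TNBS became 9 with 64 added to the signals, 2 with a filter at the 60th percentile, 1 with quantile normalization, 1 with median centring, 0 without an intensity trend (1601 unadjusted), 15 with only the 6 arrays compared, 10 with the array set as a term, 30 with that term, 16 added and a filter at the 40th percentile, 0 at an adjusted p under 0.01, and 1391 with array weights. On 430B the 93 became 162 and 273 with filters at the 40th and 60th percentile, 214 with 16 added and the 40th percentile filter, 18 without a trend, 3938 with array weights, 2 with only the 6 arrays compared, 2 without the outlying arrays, 3 without them with 16 added and the filter, and 4 at an adjusted p under 0.01. With control enema, array weights gave 1 on 430A in place of 0, and the 1 on 430B became 0 with 64 added, with the 60th percentile filter, without the outlying arrays and without them with 16 added and the filter. The interaction gave 1186 on 430A with array weights in place of 0; on 430B the 4 became 9 with the 40th percentile filter, with or without 16 added, 8 with the 60th, 0 without a trend, 1278 with array weights, 0 without the outlying arrays, 1 without them with 16 added and the filter, and 0 at an adjusted p under 0.01. Array weights gave curcumin-TNBS replicate 2 on 430A a weight of 5.45. On 430B the lowest weight, 0.340, went to curcumin-TNBS replicate 1, while the outlying replicates 2 and 3 had 1.53 and 1.31. Leaving out 1 array gave 0 to 31 probe sets on 430A and 5 to 2998 on 430B under TNBS (5 without standard-TNBS replicate 3, 13 without standard-TNBS replicate 1, 20 without standard-TNBS replicate 2, 2998 without curcumin-TNBS replicate 1, 10 and 9 without its replicates 2 and 3, 23 to 29 without a standard-control array, 47 and 156 without curcumin-control replicates 2 and 1), 0 to 2 on 430B with control enema, and for the interaction 0 to 3 on 430A and 2 to 1322 on 430B.

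The difference of Lcn2 was -5.41 to -4.90 with 1 array left out and that of Aldh1a1 0.73 to 0.88, but the calls held in 2 and 3 of the 12 fits, and that of Lbp in 3. Clca4b kept its call in all 12. The signs of Tnf (-0.064 with the array set, -0.063 with 16 added and the filter as well; -0.16 to 0.35 with 1 array left out), Il17a (-0.035 and -0.027 in the same fits; -0.012 to 0.67), Il10 (0.25 with array weights; -0.15 to 0.16) and Ifng (-0.14 to 0.55) turned, as did those of the markers Epcam (0.040 with quantile normalization) and Actg2 (-0.078 to 0.081 with 1 array left out), and Muc2, among the brightest probe sets, gave 0 with quantile normalization. Over 81 named genes, 1590 values under another setting kept direction and side of the threshold, 154 lost the call, 92 gained it and 16 changed sign or came to 0. The cause of these changes was not tested. No paired analysis was possible because the replicate numbers used here follow accession order and the labels give no number or batch that ties an array of 1 group to an array of another.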
